A study of Mus musculus with 18 samples.

Results

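The genes described here encode 8 subunits of the neuronal nicotinic acetylcholine receptor, Chrna3, Chrna4, Chrna5, Chrna6, Chrna7, Chrnb2, Chrnb3 and Chrnb4, out of 31441 genes in the deposited expression table. They were taken by symbol from that table, which writes them in capitals (CHRNA3, CHRNA4, CHRNA5, CHRNA6, CHRNA7, CHRNB2, CHRNB3 and CHRNB4), and all 8 were found. The table comes from 18 Illumina BeadArrays of sorted mouse cells. Embryonic stem cells of strain J1 carried a bacterial artificial chromosome in which the regulatory region of a gene drives a fluorescent protein, and were differentiated in culture toward midbrain dopamine neurons. The 3 lines were Hes5::GFP, whose gene marks neural progenitors, Nurr1::GFP, whose gene (Nr4a2) is switched on in young dopamine neurons, and Pitx3::YFP, whose gene follows in midbrain dopamine neurons. Between days 14 and 15 each line was divided by flow cytometry into cells with and without reporter fluorescence, called positive and negative here, and each of the 6 fractions has 3 arrays. One array, Hes5-negative replicate 2, is negative by its title and genotype label and positive by its source label, and was kept as negative. All fractions therefore share the J1 background, the differentiation scheme and a reporter transgene, and the negative cells of a line are its own controls. A BAC reporter can differ from the native gene in where it is active. The labels do not say whether the 3 replicates are separate differentiations, so the p-values measure only the spread between these arrays.

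Nicotinic receptors are cation channels opened by acetylcholine, each built from several subunits around a shared pore. The mix of alpha and beta subunits sets where a receptor is found and how it responds to nicotine. Receptors with the alpha4 and beta2 subunits are the most widespread in the brain, those with alpha3 and beta4 are known from autonomic ganglia and the medial habenula, alpha7 forms channels of its own, and alpha6 and beta3 are known from catecholamine neurons, among them the dopamine neurons of the midbrain. The alpha5 subunit joins receptors that already hold other alpha and beta subunits. Chrna5, Chrna3 and Chrnb4 lie side by side in the genome, a region whose human counterpart is known for its link to nicotine dependence, and Chrnb3 and Chrna6 form a second group of neighbours. In the mouse annotation used here (GRCm38.p6), no other gene lay between the members of either group. The first group is on chromosome 9 and the second on chromosome 8.

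In these sorted cells the subunits of the chromosome 9 group were brightest in the Nurr1-positive and Pitx3-positive fractions, and Chrna6 was brightest in the Pitx3-positive fraction. Chrna4 and Chrnb2 were above background in all 18 arrays, Chrnb3 in 1 array, and Chrna7 in none. A probe counted as above background on an array when its detection p-value was under 0.01. For a gene to be tested, a probe had to pass this in at least 3 arrays, which 6 of the 8 subunits and 12651 genes in all did. A subunit that passed only through the fractions where it is bright had to differ between fractions. Chrna6 passed only through the Nurr1-positive and Pitx3-positive arrays, and Chrna5 and Chrnb4 passed mostly through them. Counts over the 6 are therefore given as a description.

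Levels below are normalized log2 intensities, on a scale with an offset of 16 that understates fold changes of dim genes. Calls are those of limma at an adjusted p under 0.05, with the Benjamini-Hochberg method over all 12651 genes tested. In the Pitx3 sort (positive against negative cells), 3 of the 8 subunits, Chrna3, Chrnb4 and Chrna6, rose, where 0.443% of all genes were called in either direction and 0.372% were called higher. In the Nurr1 sort Chrna5 rose, 1 subunit of 8, where 0.0237% of all genes were called. In the Hes5 sort limma called 0 of the 8 subunits and 0.0158% of all genes, and 1 subunit (Chrna3) had an unadjusted p under 0.05, as 6.5% of all genes did.

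Equal replicate numbers marked fractions that vary together, and a paired fit therefore used the differences within each pair of fractions. It called 4 subunits in the Pitx3 sort, where 14.6% of all genes were called, 2 in the Nurr1 sort, where 0.775% were, and 0 in the Hes5 sort, where 1.23% were. Of the 6 tested subunits, 1, 6 and 5 had positive arrays wholly above the negative ones in the Hes5, Nurr1 and Pitx3 sorts, as 6.03%, 11.5% and 9.3% of all genes did. In the Nurr1 and Pitx3 sorts all 6 were higher in 3 of 3 pairs, as 26.4% and 30.7% of all genes were, and in the Hes5 sort 1 was, with 21.8% of all genes. The added calls of the paired fit were Chrnb2 in the Pitx3 sort and Chrnb4 in the Nurr1 sort. No subunit was called lower in any comparison.

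**Figure D1:**
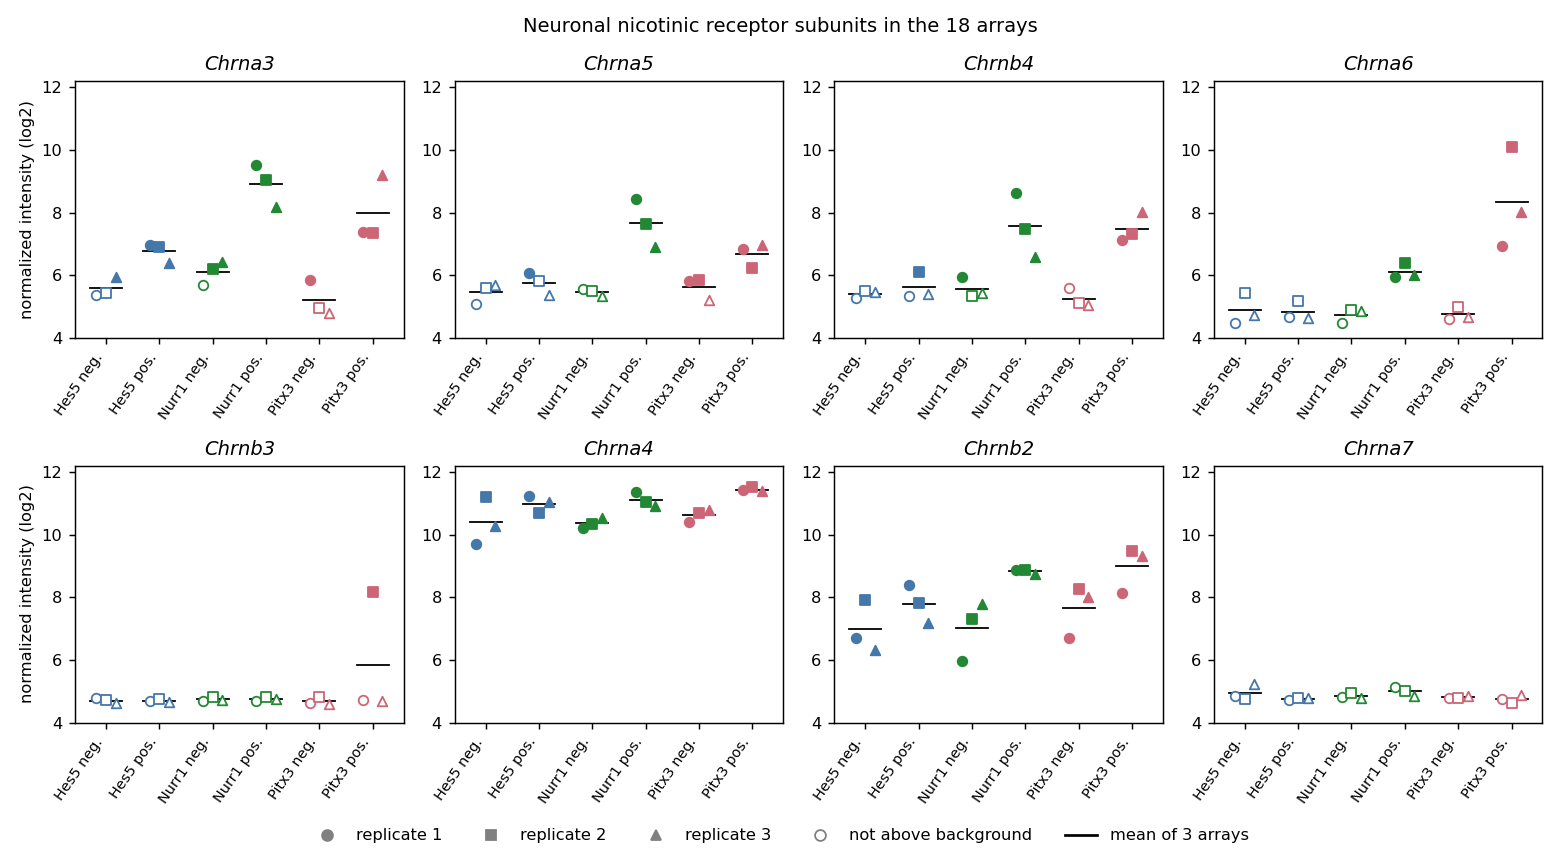
Normalized log2 intensity (y axis) of the 8 subunits in each of the 18 arrays, by sorted fraction (x axis). Marker shape gives the replicate, open markers lie below the detection threshold and lines are means of 3 arrays. Chrna6 was above background in 6 arrays, all of them Nurr1-positive or Pitx3-positive. Chrnb3 is drawn by 1 of its 3 probes, and heights are not comparable between genes because each has its own probe.

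The promoter windows of the chromosome 9 group are shown because the levels of these 3 genes followed each other across the 18 arrays, as described further on. They are the 250 bases before the annotated start, from RefSeq on GRCm38.p6, read along the gene's own strand, and the table held such a window for 6 of the 8 subunits (none for Chrna6 or Chrnb3). Capitals mark matches on either strand to a GC box (GGGCGG) or an E box (CANNTG), some of which overlap. Chrna5 has a pair of annotated starts, and its gene model overlaps that of Chrna3. The windows are at chr9:55026563-55026812 (minus strand) for Chrna3, chr9:54980630-54980879 (plus) and chr9:54981238-54981487 (plus) for Chrna5, and chr9:55048545-55048794 (minus) for Chrnb4.
Chrna3: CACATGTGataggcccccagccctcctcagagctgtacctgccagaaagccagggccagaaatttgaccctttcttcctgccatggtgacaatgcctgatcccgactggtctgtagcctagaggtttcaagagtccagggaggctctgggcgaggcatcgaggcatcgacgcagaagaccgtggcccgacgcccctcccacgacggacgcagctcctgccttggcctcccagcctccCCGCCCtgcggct
Chrna5, first start: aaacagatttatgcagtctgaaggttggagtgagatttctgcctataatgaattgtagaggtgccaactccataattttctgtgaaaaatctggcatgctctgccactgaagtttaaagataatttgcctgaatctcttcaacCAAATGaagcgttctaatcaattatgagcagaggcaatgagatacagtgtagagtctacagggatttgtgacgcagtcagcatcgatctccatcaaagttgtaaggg
Chrna5, second start: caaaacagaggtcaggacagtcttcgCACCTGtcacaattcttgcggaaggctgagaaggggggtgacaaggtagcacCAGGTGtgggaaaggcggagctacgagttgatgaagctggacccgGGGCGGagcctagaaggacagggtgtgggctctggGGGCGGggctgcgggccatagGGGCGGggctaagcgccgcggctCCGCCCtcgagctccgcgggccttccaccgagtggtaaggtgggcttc
Chrnb4: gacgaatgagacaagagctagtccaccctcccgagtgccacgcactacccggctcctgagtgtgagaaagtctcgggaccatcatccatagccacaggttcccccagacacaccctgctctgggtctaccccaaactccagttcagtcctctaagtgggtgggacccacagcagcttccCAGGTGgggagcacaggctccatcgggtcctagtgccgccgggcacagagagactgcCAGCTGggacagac

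The Chrna3 window held 1 GC box 8 to 13 bases before the start, and the second Chrna5 window held 4. The Chrnb4 window and the first Chrna5 window held none. Each of the 4 windows held an E box. Of 32851 mouse promoter windows of the same length, 32.7% held a GC box and 66.2% an E box, so neither sets these genes apart. The window at the second Chrna5 start was 65.2% G and C with 17 CpG dinucleotides, against 40% and 3 at the first start. The element bound by Nurr1 as a monomer (AAAGGTCA) and the bicoid-class motif bound by Pitx3 (TAATCC) were searched on both strands. Neither had a match in the windows of the 6 subunits, and they were found in 1.34% and 6.25% of all windows. This says only that these letters are not in these windows.

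Chrna3 encodes the alpha3 subunit, which with beta4 makes up the ganglionic type of receptor. In the Nurr1-positive arrays, replicates 1 to 3, its level was 9.52, 9.04 and 8.16, against 5.70, 6.19 and 6.43 in the Nurr1-negative arrays. In the Pitx3-positive arrays it was 7.38, 7.35 and 9.20, against 5.84, 4.97 and 4.79 in the Pitx3-negative arrays. The Hes5-positive arrays read 6.98, 6.91 and 6.39 and the Hes5-negative arrays 5.38, 5.44 and 5.94. In each line the positive arrays all lay above the negative ones, and the 9 positive arrays were all above background.

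In the Pitx3 sort Chrna3 rose by 2.78 log2 (SE 0.46), a 6.86-fold difference with a limma adjusted p of 0.0211 and of 0.0175 in the paired fit, and was higher in 3 of 3 pairs. The means were 7.98 ± 1.06 (SD, n = 3) in positive and 5.20 ± 0.56 in negative cells. The Nurr1 sort gave a difference of almost the same size, 2.80 log2 (SE 0.46, 6.99-fold), which did not pass the threshold (adjusted p = 0.0738, and 0.0525 in the paired fit). The Hes5 sort gave 1.17 log2 (SE 0.46, adjusted p = 0.684, and 0.241 paired), also higher in 3 of 3 pairs. Leaving out 1 array at a time ended the Pitx3 call for 5 of the 6 Pitx3 arrays, all but positive replicate 1, with adjusted p up to 0.128. Without positive replicate 3, the brightest, the difference was 2.17 log2 (adjusted p = 0.0963). Chrna3 has a second probe, which was not above background in any array (4.64 to 5.22), so these values rest on 1 probe.

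Ordered by mean, Chrna3 was brightest in Nurr1-positive cells (8.91), then Pitx3-positive (7.98), Hes5-positive (6.76), Nurr1-negative (6.11), Hes5-negative (5.59) and Pitx3-negative cells (5.20). The ranges of neighbours in this order overlapped, except between Pitx3-positive and Hes5-positive cells.

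Chrna5 encodes the accessory alpha5 subunit. Its level was 8.42, 7.64 and 6.92 in the Nurr1-positive arrays and 5.57, 5.51 and 5.34 in the Nurr1-negative arrays, none of which was above background. In the Pitx3-positive arrays it was 6.85, 6.23 and 6.97, and in the Pitx3-negative arrays 5.82, 5.86 and 5.20. The Hes5-positive arrays read 6.06, 5.83 and 5.36 and the Hes5-negative arrays 5.08, 5.59 and 5.69. The positive arrays lay above the negative ones in the Nurr1 and Pitx3 lines and overlapped them in the Hes5 line.

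In the Nurr1 sort Chrna5 rose, by at least 3.62-fold, with a limma adjusted p of 0.0436 and of 0.0364 in the paired fit. The bound sets the mean of the bright group against the detection limit of the dim arrays, since no Nurr1-negative array measured the gene, and the measured means were 7.66 ± 0.75 and 5.48 ± 0.12 (SD, n = 3). This call stands close to the threshold. It was lost in 17 of the 18 fits that left out 1 array, including that without Hes5-negative replicate 2 (adjusted p = 0.0758), and was kept without Nurr1-positive replicate 3 (0.00861), with a difference of 1.80 to 2.56 log2 throughout. In the Pitx3 sort the difference was 1.06 log2 (SE 0.33), with an adjusted p of 0.178 and of 0.0605 in the paired fit, and in the Hes5 sort it was 0.30 log2 (SE 0.33, adjusted p = 0.903).

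By mean level, Chrna5 ran from 7.66 in Nurr1-positive and 6.68 in Pitx3-positive cells to 5.75 in Hes5-positive cells. The 3 negative fractions, at 5.45 to 5.63, overlapped the Hes5-positive arrays. The break in the order lay again between Pitx3-positive and Hes5-positive cells, whose ranges did not overlap.

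Chrnb4 encodes the beta4 subunit, the partner of alpha3. Its level was 8.63, 7.49 and 6.59 in the Nurr1-positive arrays and 5.96, 5.35 and 5.42 in the Nurr1-negative arrays. It was 7.13, 7.33 and 8.01 in the Pitx3-positive arrays, and 5.60, 5.12 and 5.05 in the Pitx3-negative arrays, where it was not above background. The Hes5-positive arrays read 5.34, 6.10 and 5.41 and the Hes5-negative arrays 5.29, 5.49 and 5.45. Chrnb4 was thus above background in all Nurr1-positive and Pitx3-positive arrays and in 2 of the other 12.

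In the Pitx3 sort Chrnb4 rose by at least 3.19-fold, with a limma adjusted p of 0.0280 and of 0.0106 in the paired fit. The measured means were 7.49 ± 0.46 and 5.26 ± 0.30 (SD, n = 3). In the Nurr1 sort its difference was 1.99 log2 (SE 0.40, 3.98-fold), which did not pass without pairs (adjusted p = 0.216) and passed in the paired fit (0.0364), higher in 3 of 3 pairs. The Hes5 sort gave 0.21 log2 (SE 0.40, adjusted p = 0.945). The Pitx3 call was lost without any of 5 of the 6 Pitx3 arrays (all but positive replicate 1), with adjusted p up to 0.162, and the paired call in the Nurr1 sort was lost without 5 of the 9 pairs (Nurr1 pairs 1 and 2, Hes5 pair 3, and Pitx3 pairs 2 and 3). Its order by mean began with 7.57 in Nurr1-positive and 7.49 in Pitx3-positive cells, with overlapping ranges. The other 4 fractions followed at 5.26 to 5.62, below both.

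The 3 genes of the chromosome 9 group followed each other across arrays. Over the 18 arrays Pearson's r was 0.90 between Chrna3 and Chrna5, 0.91 between Chrna3 and Chrnb4 and 0.90 between Chrna5 and Chrnb4, as a description of arrays that share lines and sorts. After each fraction's mean was subtracted, r was 0.66, 0.66 and 0.73. In the Nurr1-positive arrays all 3 were brightest in replicate 1 and dimmest in replicate 3, while in the Pitx3-positive arrays all 3 were brightest in replicate 3. The order was not particular to this group. Within the pairs, reporter RNA read by an EGFP probe differed by 4.53, 3.81 and 2.20 log2 in Nurr1 pairs 1 to 3. In Pitx3 pairs 1 to 3 it differed by 3.58, 4.60 and 4.91 log2. Chrna3 differed by 3.82, 2.86 and 1.74, and by 1.54, 2.39 and 4.41 log2, in these pairs. Th had the order in the Nurr1 pairs (4.80, 2.76 and 1.70) and not in the Pitx3 pairs (5.09, 4.56 and 4.77). The part of the sorts in it was not tested. Chrna6 did not share the order of the 3 genes in the positive arrays. Its r with Chrna3, Chrna5 and Chrnb4 was 0.58, 0.49 and 0.72 over the arrays, and −0.10, −0.24 and 0.02 after each fraction's mean was subtracted. Chrna5, Chrnb4 and Chrna6 were above background in 9, 8 and 6 of the 18 arrays, so these r rest in part on background readings. Chrna6 varied most in the Pitx3-positive arrays (SD 1.61, against 0.21 to 0.49 in the other fractions), which weigh most in its r after subtraction. How many of all gene pairs reach such r was not counted. Subunits whose genes are not neighbours also varied together. Chrna4 and Chrnb2 gave 0.81 over the arrays and 0.56 after subtraction, and Chrna6 and Chrnb2 gave 0.74 and 0.54.

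**Figure D2:**
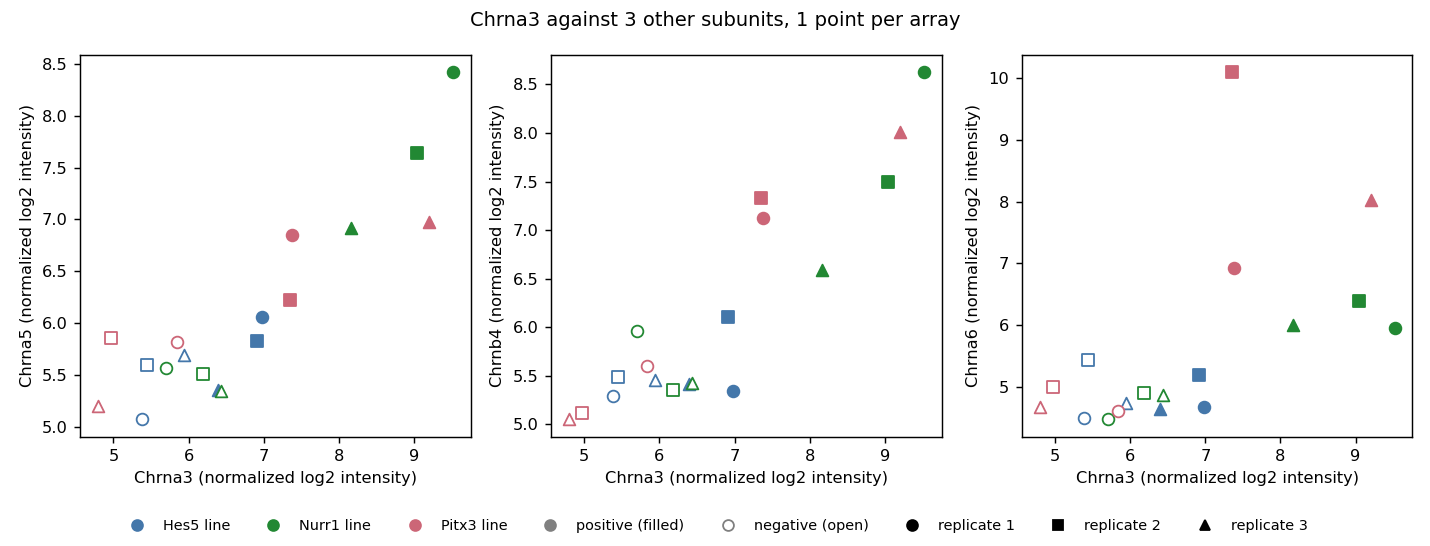
Normalized log2 intensity of Chrna3 (x axis) against Chrna5, Chrnb4 and Chrna6 (y axes), with 1 point per array. Colour gives the line, filled points are positive fractions and shape gives the replicate. Chrna5 and Chrnb4 follow Chrna3 (r = 0.90 and 0.91), while the brightest Chrna6 array, Pitx3-positive replicate 2 at 10.10, has a Chrna3 level of 7.35.

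The genes next to the group on chromosome 9 were read as a comparison of position. Psma4, a proteasome subunit, and Ube2q2, a ubiquitin-conjugating enzyme, were above background in all 18 arrays and were called in none of the comparisons. Psma4 differed by −0.02 log2 (SE 0.17) in the Nurr1 sort and −0.18 log2 in the Pitx3 sort, and Ube2q2 by 0.24 (SE 0.22) and 0.18 log2. The neighbours AY074887 and Fbxo22 were not tested.

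Chrna6 encodes the alpha6 subunit, known from dopamine neurons. Its level was 6.93, 10.10 and 8.03 in the Pitx3-positive arrays and 4.60, 5.003 and 4.67 in the Pitx3-negative arrays. In the Nurr1-positive arrays it was 5.95, 6.39 and 6.01, against 4.47, 4.90 and 4.87 in the Nurr1-negative arrays. The Hes5-positive arrays read 4.67, 5.18 and 4.63 and the Hes5-negative arrays 4.49, 5.44 and 4.74. Only the Pitx3-positive and Nurr1-positive arrays were above background, and these fractions overlapped neither each other nor the other 4.

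In the Pitx3 sort Chrna6 rose by at least 5.82-fold, with a limma adjusted p of 0.0170 and of 0.00498 in the paired fit. The measured means were 8.35 ± 1.61 and 4.76 ± 0.21 (SD, n = 3), and the fitted log2 differences that follow are taken against negative arrays below background, so they are no measured folds. Within the 3 pairs they were 2.33, 5.10 and 3.36 log2. The difference depended on which array was included. It was 2.72 log2 without Pitx3-positive replicate 2 (adjusted p = 0.0159) and 4.31 log2 without replicate 1 (0.000954), and the call was lost when Pitx3-positive replicate 3, Pitx3-negative replicate 1 or Pitx3-negative replicate 3 was left out, with adjusted p up to 0.127. The second Chrna6 probe gave 3.60 log2 beside 3.59 log2 for the probe used, and 1.30 beside 1.37 log2 in the Nurr1 sort.

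In the Nurr1 sort Chrna6 was at least 1.24-fold brighter in positive cells, in 3 of 3 pairs, and did not pass the test (limma adjusted p = 0.552, and 0.103 in the paired fit). The Hes5 sort gave −0.06 log2 (SE 0.54, adjusted p = 0.991) with every array below background.

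Chrnb3 encodes the beta3 subunit, which assembles with alpha6 and is the neighbour of Chrna6 on chromosome 8. It was above background in 1 of the 18 arrays, Pitx3-positive replicate 2, and there by all 3 of its probes. They read 9.01, 8.15 and 7.27 in that array and 4.45 to 5.31, 4.60 to 4.82 and 4.43 to 4.74 in the other 17. Since fewer than 3 arrays passed, Chrnb3 was not tested. The array that held Chrnb3 was also the brightest for Chrna6. Of the genes next to this pair, Eif4ebp1, a translation regulator, was above background in all 18 arrays. It differed by −0.40 log2 (SE 0.55, adjusted p = 0.781) in the Pitx3 sort, while Tex24, Poteg and Unc5d were above background in none.

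The same array was also the brightest of the Pitx3-positive arrays for Th, Slc6a3 and the mean of the dopamine neuron markers. In the Pitx3-positive arrays, replicates 1 to 3, Th, the rate-limiting enzyme of dopamine synthesis, read 12.78, 14.25 and 13.35. Slc6a3, the dopamine transporter, read 7.57, 14.14 and 11.05. The mean of the 13 tested dopamine neuron markers, of 14 listed, was 9.94, 11.29 and 10.53, in the order of Chrna6 (6.93, 10.10 and 8.03) and not of Chrna3 (7.38, 7.35 and 9.20). This order was not particular to dopamine neuron genes. Chrnb2 (8.14, 9.49 and 9.33) and the mean of the tested pan-neuronal genes (10.004, 10.83 and 10.64) had it too. The mean of the tested progenitor markers ran the other way (9.54, 7.48 and 8.74). With 3 arrays this is a description and was not tested. In bulk RNA of sorted cells, more cells of a type and more RNA per cell cannot be told apart.

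**Figure D3:**
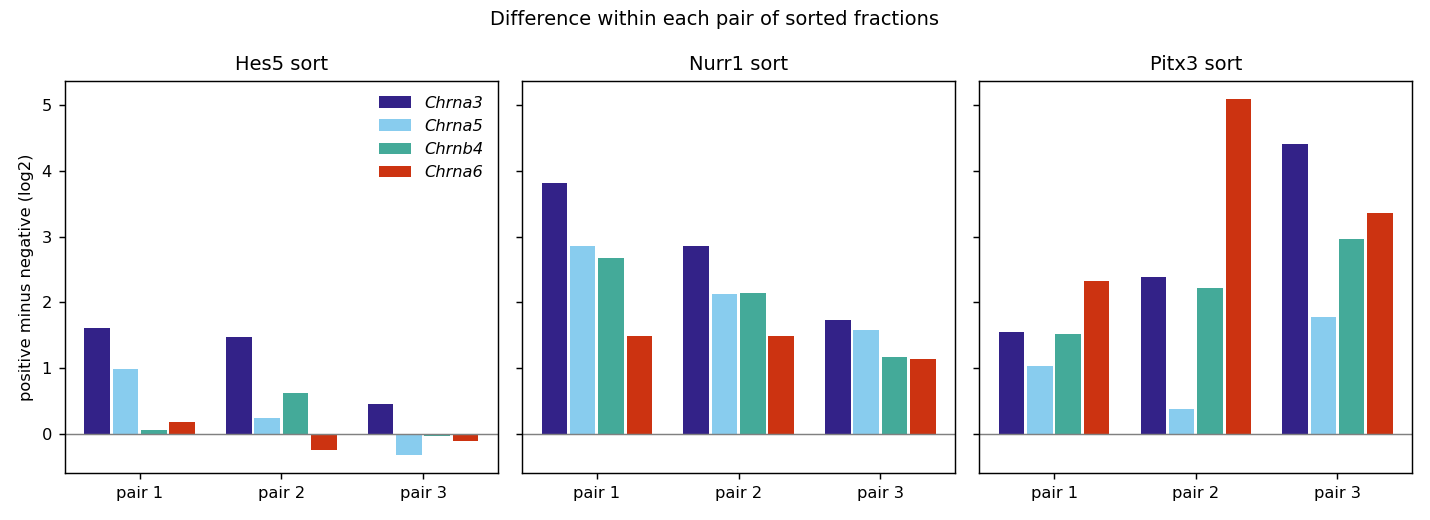
Difference between positive and negative cells (log2, y axis) within each of the 3 pairs of each line, for Chrna3, Chrna5, Chrnb4 and Chrna6. All 4 were higher in every Nurr1 and Pitx3 pair. Chrna6 was below background in all negative arrays and in both Hes5 fractions, so its bars have no measured lower end, and the largest Chrna3 difference, 4.41 log2, was in Pitx3 pair 3.

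Chrna4 encodes the alpha4 subunit of the widespread brain receptor. It was above background in every array, and the fractions differed by little. Its level was 11.41, 11.51 and 11.38 in the Pitx3-positive and 10.39, 10.70 and 10.78 in the Pitx3-negative arrays. It was 11.34, 11.04 and 10.91 in the Nurr1-positive and 10.22, 10.33 and 10.52 in the Nurr1-negative arrays. The Hes5-positive arrays read 11.21, 10.69 and 11.05 and the Hes5-negative arrays 9.70, 11.20 and 10.28. Positive arrays lay above negative ones in the Nurr1 and Pitx3 lines and overlapped them in the Hes5 line.

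No sort passed the test for Chrna4. The differences were 0.82 log2 (SE 0.28, limma adjusted p = 0.219, and 0.110 in the paired fit) in the Pitx3 sort, 0.74 log2 (0.551, and 0.193 paired) in the Nurr1 sort and 0.59 log2 (0.762, and 0.311 paired) in the Hes5 sort. Within the 3 Hes5 pairs Chrna4 differed by 1.51, −0.51 and 0.76 log2, and pair 2 holds the negative array with contradicting labels. In the paired fit the Hes5 difference was 1.14 log2 without pair 2, where it passed (adjusted p = 0.0267), and 0.13 log2 without pair 1 (0.885). Without that negative array alone it was 0.99 log2 in the fit without pairs (0.0547). The second bright Chrna4 probe gave 0.76, 0.64 and 0.65 log2. The mean was highest in Pitx3-positive cells (11.44 ± 0.07, SD, n = 3), whose 3 arrays lay above all Nurr1-positive arrays (11.10 ± 0.22). All other neighbours in the order overlapped.

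Chrnb2 encodes beta2, the partner of alpha4. Its level was 8.88, 8.86 and 8.75 in the Nurr1-positive arrays and 5.98, 7.32 and 7.77 in the Nurr1-negative arrays. It was 8.14, 9.49 and 9.33 in the Pitx3-positive arrays and 6.69, 8.27 and 8.02 in the Pitx3-negative arrays. The Hes5-positive arrays read 8.40, 7.82 and 7.17 and the Hes5-negative arrays 6.70, 7.90 and 6.33. The groups overlapped in the Hes5 and Pitx3 lines and did not in the Nurr1 line.

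In the Pitx3 sort the Chrnb2 difference was 1.32 log2 (SE 0.55) and did not pass without pairs (limma adjusted p = 0.294). It passed in the paired fit (0.0459), with differences of 1.45, 1.21 and 1.31 log2 within the 3 pairs, and this call was lost without 5 of the 9 pairs (all 3 Pitx3 pairs, Hes5 pair 3 and Nurr1 pair 2). The Nurr1 sort gave 1.81 log2 (SE 0.55, adjusted p = 0.398, and 0.0648 in the paired fit), higher in 3 of 3 pairs, and the Hes5 sort 0.82 log2 (0.822, and 0.247 paired). A second Chrnb2 probe, also above background in all 18 arrays, gave 1.15, 1.62 and 0.78 log2 in the Pitx3, Nurr1 and Hes5 sorts. Chrnb2 means were 8.99 in Pitx3-positive and 8.83 in Nurr1-positive cells, which overlapped, and 6.98 to 7.79 in the other 4 fractions.

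Chrna7 encodes the alpha7 subunit. None of its 3 probes was above background in any array, and its readings were 4.63 to 5.24, 4.52 to 4.95 and 4.50 to 4.93. It was not tested, and its level was not measurable on these arrays in any fraction.

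The positive fractions of the 3 lines were then compared with each other. Each comes from its own line, so a difference between the reporters' cells and one between the lines cannot be told apart. Nurr1-positive against Hes5-positive cells called 2 subunits, Chrna5 and Chrnb4, where 0.419% of all genes were called (0.103% higher), and 5 of 6 tested subunits lay wholly above, as 10.3% of all genes did. Chrna5 rose by 1.91 log2 (SE 0.33, 3.75-fold, limma adjusted p = 0.0234) and Chrnb4 by 1.95 log2 (SE 0.40, 3.87-fold, 0.0499). Chrna3 gave 2.15 log2 (SE 0.46) and did not pass (0.0599). The Chrna5 call was lost without Nurr1-positive replicate 1 or 2 or Hes5-positive replicate 1 or 3 (adjusted p up to 0.105), and the Chrnb4 call, at the threshold, in 14 of 18 such fits (up to 0.229). Chrna6, below background in the Hes5-positive arrays, was at least 1.25-fold brighter, and Chrnb2 and Chrna4 gave 1.04 and 0.12 log2. None of the 3 passed.

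Pitx3-positive against Hes5-positive cells called 2 subunits, Chrna6 and Chrnb4, where 4.31% of all genes were called (2.05% higher), and 5 of 6 tested subunits lay wholly above, as 13.8% of all genes did. Chrna6 rose by at least 5.89-fold (limma adjusted p = 0.00575), and this was kept in all 18 fits that left out 1 array, with a fitted difference of 2.65 log2 without Pitx3-positive replicate 2 and 4.24 log2 without replicate 1. Chrnb4 rose by 1.87 log2 (SE 0.40, 3.66-fold, 0.0192), a call lost without Hes5-positive replicate 1 or 3 or Pitx3-positive replicate 2 or 3 (up to 0.0906). Chrna3, Chrna5, Chrnb2 and Chrna4 gave 1.22, 0.93, 1.19 and 0.45 log2 and did not pass (0.125, 0.108, 0.190 and 0.334).

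Pitx3-positive against Nurr1-positive cells, the fractions of the later reporters, gave 0 called subunits by limma, where 0.0158% of all genes were called, and 2 (Chrna5 and Chrna6) with an unadjusted p under 0.05, as 5.08% of all genes had. Of the 6 tested subunits 2 (Chrna6 and Chrna4) lay wholly above, as 4.61% of all genes did. Chrna6 was 2.24 log2 brighter in Pitx3-positive cells (SE 0.54, adjusted p = 0.837), without overlap. Chrna5 differed by −0.97 log2 (SE 0.33, 0.906), Chrna3 by −0.93 log2 (SE 0.46, 0.974) and Chrnb4 by −0.08 log2 (SE 0.40, 0.997), with overlapping arrays. That Chrna6 had its highest mean in one fraction and Chrna3 and Chrna5 in the other is thus a matter of order, and no difference between these fractions passed the test. These 3 comparisons share their positive arrays.

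**Figure D4:**
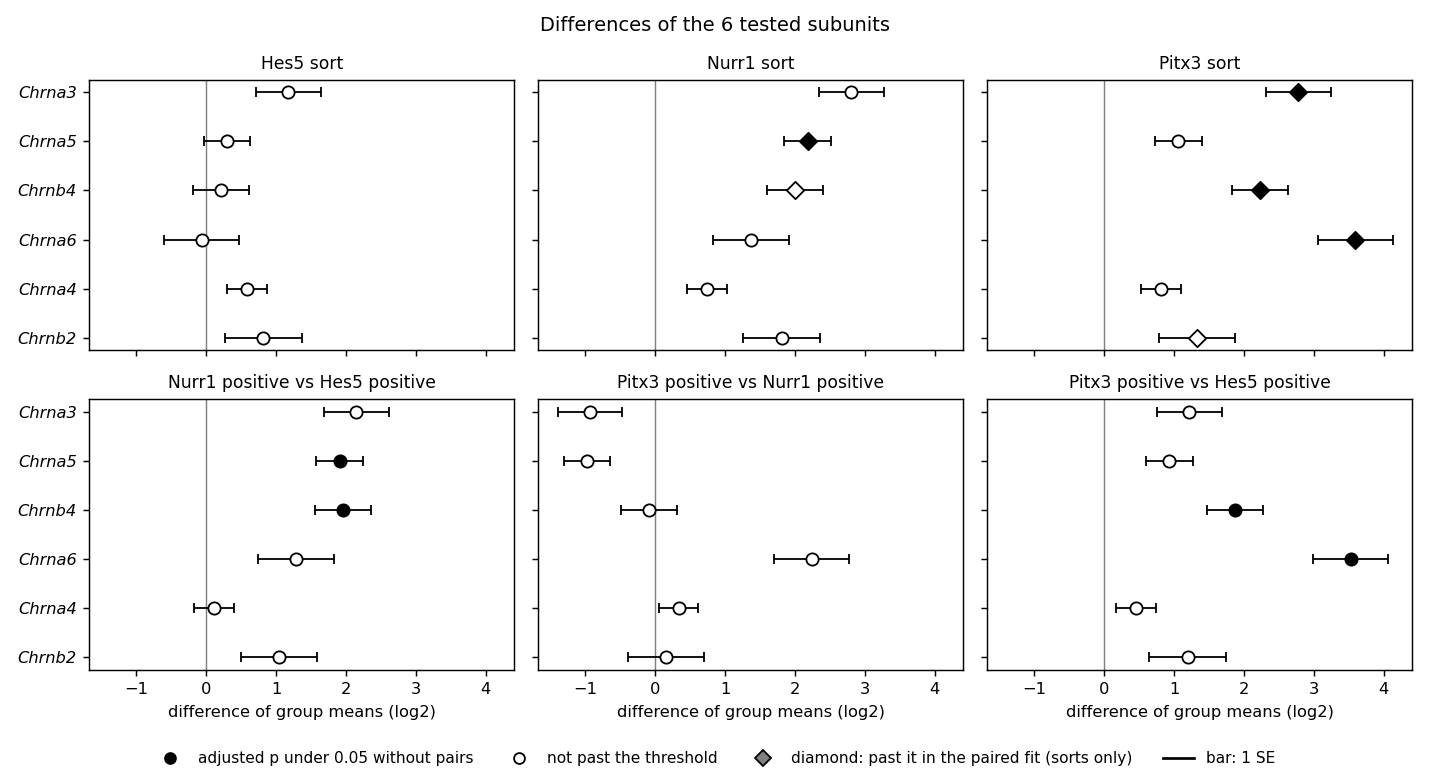
Difference of group means (log2, x axis) with 1 SE for the 6 tested subunits in the 3 sorts (top) and the 3 comparisons of positive fractions (bottom). Filled markers passed an adjusted p of 0.05 without pairs, and diamonds passed it in the paired fit, which exists for the sorts only. Filled markers stand at Chrna5 in the Nurr1 sort and at Chrna3, Chrnb4 and Chrna6 in the Pitx3 sort.

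Whether a sort acted differently in 2 lines was tested by the difference of the sort effects. Without pairs limma called 0 subunits in any of the 3 tests, where 0.0079% of all genes were called for Nurr1 against Hes5, 0.0553% for Pitx3 against Hes5 and 0% for Pitx3 against Nurr1. At an unadjusted p under 0.05 the counts were 3, 3 and 2 subunits, beside 3.99%, 7.82% and 0.443% of all genes. In the paired fit, Pitx3 against Hes5 called 2 subunits, where 3.27% of all genes were called, and the other tests called 0 subunits and 0% of all genes. Chrna6 differed more in the Pitx3 than in the Hes5 sort by 3.66 log2 (SE 0.57, paired adjusted p = 0.0242, and 0.108 without pairs) and Chrnb4 by 2.02 log2 (SE 0.44, 0.0460, and 0.219 without pairs). For Chrna6 both Hes5 fractions and the Pitx3-negative arrays are below background, so 3.66 log2 is a fitted value and no measured contrast. Chrnb4 is likewise below background in all negative arrays of both lines. As said above, the filter let both genes in only or mostly through fractions where they are bright. The Chrna6 call was lost without 4 of the 9 pairs (Hes5 pair 3, Nurr1 pair 2, and Pitx3 pairs 2 and 3, with adjusted p up to 0.116) and the Chrnb4 call without 5 (Hes5 pairs 1 and 3, Nurr1 pair 2, and Pitx3 pairs 2 and 3, up to 0.174). For Pitx3 against Nurr1, Chrna6 gave a fitted 2.23 log2, with negative arrays below background, and Chrna5 −1.13 log2, with an adjusted p of 0.999 for both in the paired fit.

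Of 8 other nicotinic genes listed (the muscle-type and remaining alpha subunits), 2 passed the detection filter, Chrnb1 and Chrng, and neither was called in any comparison. Chrnb1, a muscle-type subunit, gave −0.77 log2 in the Pitx3 sort (SE 0.40, limma adjusted p = 0.398, and 0.0817 in the paired fit). Chrna1, Chrna2, Chrna9, Chrna10, Chrnd and Chrne were above background in no array, so no difference could be read for them. None of the 5 muscarinic receptor genes (Chrm1 to Chrm5), which encode the G protein-coupled acetylcholine receptors, was above background in any array.

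Of 13 listed genes that act on receptor assembly or bind receptors at the surface, 9 were tested and 0 were called in the sorts without pairs. Their median difference was 0.10 log2 in the Nurr1 and −0.04 log2 in the Pitx3 sort, beside −0.02 and 0.01 log2 for all genes. The chaperones Ric3 and Tmem35a (NACHO), which help nicotinic receptors assemble, were above background in all 18 arrays. Tmem35a differed by 1.04 log2 (SE 0.41, paired adjusted p = 0.0791) in the Nurr1 and 0.78 log2 (0.0710) in the Pitx3 sort, and Ric3 by 0.79 and 0.55 log2 (0.0938 and 0.116). Lypd6, a surface protein that binds these receptors, fell by 1.21 log2 in the Pitx3 sort in the paired fit (SE 0.32, 0.0390) and was not called without pairs (0.234). It was 1 of the 9 tested genes, near the share of 14.6% of all genes called in that fit. The other 6 tested genes, Lypd6b, Lynx1, Ly6h, Ly6e, Lypd1 and Rapsn, were not called.

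Of 7 genes for making and breaking down acetylcholine, 4 were tested (Chat, Slc18a3, Ache and Prima1). Chat, which makes acetylcholine, read 7.31, 6.81 and 6.76 in the Pitx3-positive and 6.87, 5.54 and 5.15 in the Pitx3-negative arrays. Slc18a3, its vesicular transporter, read 7.91, 7.24 and 6.41 against 6.79, 5.73 and 4.62. Both were called in the Pitx3 sort only with pairs (1.11 log2, limma adjusted p = 0.0264, and 1.48 log2, 0.0153), in a fit that called 14.6% of all genes. Chat and Slc18a3 also rose in Pitx3-positive against Hes5-positive cells, by at least 2.24-fold (limma adjusted p = 0.0179) and at least 2.63-fold (0.0300). In that comparison 4.31% of all genes were called. The list's median was 1.10 log2 in the Pitx3 sort and 0.66 log2 in the Nurr1 sort. The choline transporter gene Slc5a7 was above background in no array.

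Reporter RNA, read by an EGFP probe, rose in the positive cells of all 3 lines, by 3.93, 3.51 and 4.36 log2. Of the genes that drive the reporters, Pitx3 rose by 4.10 log2 in its own sort (limma adjusted p = 0.0248), Nr4a2 gave 2.75 log2 (0.435, and 0.0364 in the paired fit) and Hes5 2.04 log2 (0.576). The dopamine neuron list had means of 9.43 to 9.76 in the Nurr1-positive and 7.49 to 8.60 in the Nurr1-negative arrays. In the Pitx3 line it had 9.94 to 11.29 in positive and 8.05 to 8.90 in negative arrays. In the paired fit of the Pitx3 sort 10 of its 13 tested genes rose (3 without pairs), where 14.6% of all genes were called in either direction. In the paired fit of the Nurr1 sort 3 of the 13 rose (Th, Nr4a2 and Pitx3, and 0 without pairs), where 0.775% of all genes were called. These counts include the genes that drive the reporters, Pitx3 in the Pitx3 and Nr4a2 in the Nurr1 sort. Their rise is a check of the sort and no separate result about dopamine neuron markers.

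The mean of 5 tested pan-neuronal genes, of 10 listed, was 10.16 to 10.47 in Nurr1-positive against 8.11 to 9.85 in Nurr1-negative arrays. In the Pitx3 line it was 10.004, 10.83 and 10.64 in positive and 9.32, 10.57 and 10.15 in negative arrays, higher in each pair. Of the 5 genes, 1 (Tubb3, a neuronal tubulin) rose in the paired fit of the Pitx3 sort (0 without pairs), where 14.6% of all genes were called in either direction. In that fit 7 of 8 serotonin neuron markers fell (0 without pairs), among them the serotonin transporter gene Slc6a4, by 3.81 log2, and Tph2, which makes serotonin, by 3.29 log2. So did 8 of 9 tested progenitor markers (0 without pairs), among them Slc1a3, by 2.46 log2, and Nes, by 2.21 log2. The list means were 6.58 to 7.59 against 9.30 to 10.46 for serotonin neurons, and 7.48 to 9.54 against 10.19 to 10.79 for progenitors. Lmx1b is in both the serotonin and the dopamine neuron list.

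In the Nurr1 line 3 lists had lower means in positive than in negative arrays without overlap, and limma called no gene of them in that sort, with or without pairs. Progenitor markers had 8.58 to 9.88 against 10.04 to 10.40, pluripotency markers 5.86 to 5.99 against 7.14 to 8.37, and GABA neuron markers 5.13 to 5.50 against 5.66 to 7.18. The part of these markers in the subunit results was not tested.

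Markers of other cell types known to use alpha3 and beta4 were read in the same arrays. Of 9 habenula and red nucleus markers, 4 were tested, and Gpr151, Tac2, Pou4f2, Nhlh2 and Syt6 were above background in no array. The mean of the 4 was 5.53 to 6.48 in Nurr1-positive and 5.43 to 5.78 in Nurr1-negative arrays, and 5.27 to 5.999 in Pitx3-positive and 5.85 to 5.96 in Pitx3-negative arrays. Pou4f1, shared by habenula and sensory neurons, read 7.50, 7.22 and 7.55 in the Nurr1-positive and 6.51, 5.62 and 6.38 in the Nurr1-negative arrays. It was not called in the Nurr1 sort (limma adjusted p = 0.521).

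Of 10 motor and autonomic markers, which include Chat and Slc18a3, 6 were tested, and Mnx1 and Hand2, which mark motor and autonomic neurons, were above background in no array. The mean of the 6 was high in Pitx3 pair 1 alone, at 8.71 in positive and 8.55 in negative cells, against 5.82 to 6.95 in the other positive and 6.10 to 6.71 in the other negative arrays. The Pitx3-positive replicate 1 of that pair held 9.84 of Isl1 and 8.02 of Phox2a. Its Chrna3 and Chrnb4 levels were 7.38 and 7.13. Pitx3-positive replicates 2 and 3 read 7.35 and 9.20 for Chrna3 and 7.33 and 8.01 for Chrnb4. Pitx3-negative replicate 1, of the same pair, read 5.84 for Chrna3 and 5.60 for Chrnb4. Pitx3-negative replicates 2 and 3 read 4.97 and 4.79 for Chrna3 and 5.12 and 5.05 for Chrnb4. Sensory neuron markers, 4 tested of 7, had means of 5.76 to 6.61 in Nurr1-positive and 5.80 to 6.48 in Nurr1-negative arrays. In the Pitx3 line they were 7.40, 4.74 and 5.74 in positive and 7.63, 6.17 and 6.30 in negative arrays, highest in pair 1. Isl1 is in both this list and the motor and autonomic list, so the lists are not separate readings of that pair. The part of these cell types in the subunit results was not tested.

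For each tested subunit, genes among the 3 with the most similar profile over the 18 arrays were named by Pearson's r, as a description of arrays that share lines and sorts. Chrna6 was closest to Scgn (0.95), Nxph3 (0.94) and Drd2, the dopamine D2 receptor (0.93). Chrnb4 was closest to Pdzrn3 (0.96), Sgpp2 (0.96) and Pgbd5 (0.94). Chrna3 was closest to Eif4e3 and Pdzrn3 (0.93 each), and Chrna5 to Vav3 (0.90), Pdzrn3 (0.87) and Kcng4 (0.87). Pdzrn3 is thus in the list of all 3 genes of the chromosome 9 group and not in that of Chrna6. Chrnb2 was closest to Unc79 and Gng3 (0.98 each) and Chrna4 to Actr1a, Mapk8ip1 and Ppp1r9b (0.90 each).

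The 18 arrays were alike in depth, with median probe intensities of 40.6 to 60.2, 33.5% to 37.4% of probes above background and 42.8 to 44.2 beads per probe on average. For the probes used here and above background, the standard error between beads was 2.29% to 8.11% of the intensity (median 4.32%), which covers the measurement on 1 array and not the spread between samples. The number of arrays, 3 per fraction, limits the precision.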

How the data were processed

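RNA of the 18 sorted samples was hybridised to Illumina BeadArrays. Per the file headers, the authors deposited for each of 45281 probes a mean intensity on a linear scale, a detection p-value, the standard error between beads (a signal on the same scale) and the count of beads per probe. The authors also deposited a log2 table of 31441 genes. GenomeStudio and Partek are named in the submitters' processing notes, without versions. In value, this table equals the log2 of 1 probe's intensity or of a mean of 2 to 4 probes, with no normalization between arrays found, and probes were tied to genes by that equality over all arrays (30329 genes, 96.5%; relative tolerance 5e-05; 1112 genes and 5030 probes untied). Gene names came from the deposited table, with 13415 matched to a RefSeq symbol, 5594 to a synonym and 12432 kept.

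Intensities were corrected and normalized with neqc (limma 3.58.1 in R 4.3.3, offset 16) and fitted with 1 mean per fraction (12 residual degrees of freedom) for the brightest kept probe of each of 12651 genes. "At least" marks a group below background on all 3 arrays. A paired fit added the replicate number within a line (6 degrees of freedom): same-numbered positive and negative arrays deviated together (r of 0.44 to 0.77 in 9 pairs, against −0.64 to 0.17 for other numbers). Deviations from a fraction's mean cancel within the fraction, so the low values for other numbers follow in part from the high ones. The procedure was run on simulated arrays with independent noise and 1 spread per gene. These lack the pairing and the unequal spread of the real arrays, so they cannot decide between the fits. Figures were drawn in Python 3.11.15 with matplotlib 3.10.9.

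Named were all 8 subunits, the sort checks, the 3 genes most correlated with each tested subunit (some genes are not reported here), called genes of each list (at most 4 per comparison by rule; for several marker lists only counts and examples are given), all tested nicotinic and assembly genes and the neighbours. Th, Slc6a3, Isl1, Phox2a and Pou4f1 were named after their values were seen. The members and lists were chosen with earlier results of these data known. Alternatives were the normalization, the deposited log2 table, the offset, the detection filter, the probe used, the groups fitted, the replicate block and leaving out arrays or pairs.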

Additional observations from a re-analysis of the deposited data

Results flagged for a closer look

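The difference between positive and negative cells was larger in the Pitx3 than in the Hes5 line for Chrna6, by 3.66 log2, and for Chrnb4, by 2.02 log2. Both differences were tested and passed in the paired limma fit (adjusted p = 0.0242 and 0.0460) and not without pairs (0.108 and 0.219). Chrna6 was below background in both Hes5 fractions and in the Pitx3-negative arrays, so its value is no measured contrast. It passed the detection filter only through the Nurr1-positive and Pitx3-positive arrays, and Chrnb4 mostly through them. A difference between fractions was thus in part set by the filter, and both values are given as a description.

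Chrnb3 lay outside the tested genes, yet all 3 of its probes were above background in Pitx3-positive replicate 2, at 9.01, 8.15 and 7.27, and in none of the other 17 arrays.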

How the results depend on the processing

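With 3 arrays per fraction, calls near the threshold turned on single arrays. Of the single-subunit differences under settings that kept all arrays, 440 kept their direction and their side of the threshold, 22 were no longer called, 5 became called and 1 changed sign: Chrna6 in the Hes5 sort, at 0.042 log2 without background correction, where every array is below background. The cause was not tested. Most of these differences were not called to begin with, so the 440 are mostly uncalled differences that stayed uncalled. The 22 lost calls stand against the few that were called, and the counts do not show that the calls are stable.

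In the fit with the replicate block, 2 subunits were called in the Nurr1 sort and 2 in the difference of the Pitx3 and Hes5 sorts, beside 1 and 0 without it. The block also called 4, 3 and 35 marker genes in the Hes5, Nurr1 and Pitx3 sorts and 3 pathway genes in the Pitx3 sort. Over all genes it called 1.23%, 0.775% and 14.6% in these sorts. Of the 1 subunit called in the Nurr1 sort, 0 were called with quantile normalization and no background correction, with the authors' log2 table as given, with offset 50, with no detection filter, or with only the groups compared. Chrna5 had adjusted p of 0.058 to 0.200 under these 5 settings. Of the 3 called in the Pitx3 sort, 1 was called with no detection filter and 0 with only the groups compared. Of the 2 called in Nurr1-positive against Hes5-positive cells, 1 was called with quantile normalization, 1 with the authors' table, 0 with no filter and 0 with only the groups compared. Of the 2 called in Pitx3-positive against Hes5-positive cells, 1 was called with the authors' table and 0 with only the groups compared. With no filter, 0 marker genes were called in the Pitx3 sort, 0 in Nurr1-positive and 7 in Pitx3-positive against Hes5-positive cells, and 0 pathway genes were called in the last comparison with the authors' table. Fits to only the groups compared have fewer arrays to estimate the spread. They also leave out the spread of the other fractions, and the spread was unequal. For Chrna6 the SD was 1.61 in Pitx3-positive cells and 0.21 to 0.49 in the other fractions, while the fit to all arrays used 1 SE of 0.54 for every sort. The part of each in the lost calls was not tested.

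With 1 array or 1 pair left out, in the fits with and without the replicate block, the counts of called subunits ran from 0 to 1 in the Hes5, 0 to 4 in the Nurr1 and 0 to 6 in the Pitx3 sort, 0 to 3 in Nurr1-positive and 1 to 2 in Pitx3-positive against Hes5-positive cells, and 0 to 2 for the Pitx3 minus the Hes5 sort. Uncalled differences changed sign as follows. In the Hes5 sort, with 1 array left out, they ran from −0.033 to 0.35 log2 for Chrnb4 and −0.26 to 0.21 for Chrna6. In the paired fit, Chrna5 was −0.046 without Hes5 pair 1 and Chrna6 0.035 without Hes5 pair 2. With 1 array left out, Chrna4 ran from −0.031 to 0.23 in Nurr1-positive against Hes5-positive cells, and Chrnb4 from −0.57 to 0.45 and Chrnb2 from −0.095 to 0.58 in Pitx3-positive against Nurr1-positive cells. For Nurr1 minus Hes5, Chrna4 ran from −0.25 to 0.50, and was −0.40 and −0.036 in the paired fit without Hes5 pair 2 and Nurr1 pair 1. For Pitx3 minus Hes5, Chrna4 ran from −0.17 to 0.58, and was −0.32 without Hes5 pair 2. For Pitx3 minus Nurr1, Chrna3 ran from −0.64 to 0.29, Chrnb4 from −0.25 to 0.77, Chrna4 from −0.042 to 0.20 and Chrnb2 from −0.97 to 0.038. In the paired fit of that difference, Chrna3 was 0.48, 0.59 and 0.17 without Nurr1 pair 1, Pitx3 pair 1 and Pitx3 pair 2, and Chrnb2 was 0.062 without Nurr1 pair 1. Chrnb4 was −0.18 and −0.13 without Nurr1 pair 3 and Pitx3 pair 3, and Chrna4 −0.10 and −0.029 without Nurr1 pair 3 and Pitx3 pair 1. Signal over background limits Chrna7 and Chrnb3, which could not be compared between fractions.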
